A study of Caenorhabditis elegans with 12 samples.

Results

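The comparison was between Caenorhabditis elegans of strain MT4930, which carries the ced-1(n1995) allele on chromosome I, and the wild type strain N2 Bristol. All arrays of the 2 strains were taken, 8 of the 12 in the series, as 4 pairs in which mutant and wild type had the same exposure. The other 4 arrays, of the dystrophin mutant LS292 with dys-1(cx18), are given for reference. In the fit over all 12 arrays they entered only the estimate of the spread. In some alternative fits, as where a single array was left out, they also entered the fitted difference. Whole worms were profiled with a single-colour Cy3 NimbleGen array, and a level below is the log2 of the deposited intensity, averaged over the features of a gene.

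The study asked how spaceflight with and without weightlessness acts on worms, in a wild type and in mutants. Worms of all strains were synchronized as dauer larvae, the non-feeding survival stage, and loaded with fresh growth medium at 23 °C. The static flight array of each strain came from a container in weightlessness that received 1.92 mGy of radiation. The centrifuge flight array came from a container held at 1 g in flight that received 2.27 mGy. The flight lasted 16.5 days and worms were frozen 7 h after landing. The ground control was held in a static slot of the same kind of box for 16.5 days, started 2 days later than the flight, and was collected after the same 7 h. The untransported control was kept at the home university in an incubator, and the labels used here do not give its duration or time of collection. The submitters made technical but no biological repeats, so each strain and exposure is represented by 1 array. Within an exposure the strain and the container therefore cannot be told apart, and p-values measure only the spread between these arrays.

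CED-1 is a transmembrane receptor on cells that engulf apoptotic corpses. It clusters around the dying cell, with the adaptor CED-6 and the ABC transporter CED-7 acting in the same branch, while CED-2, CED-5 and CED-12 act in a parallel branch that activates the Rac GTPase CED-10. In the adult hermaphrodite, sheath cells of the gonad use CED-1 to clear germ cells that die during oogenesis. The receptor has also been linked to the abu- and pqn- genes, which encode proteins rich in glutamine and asparagine and form part of an unfolded protein response.

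No gene of 20018 passed the test between the ced-1 mutant and the wild type over the 4 exposures. The share called at an adjusted p under 0.05 was 0%, and the lowest adjusted p in the limma fit was 0.739. Without adjustment, 1059 genes (5.29%) had a p under 0.05, where 1001 would be expected with no difference at all. Of these, 557 (2.78%) were at a higher level in the mutant and 502 (2.51%) at a lower level. The 95% interval of the mean difference had a median half-width of 0.49 on the log2 scale, and for 18055 genes (90.2%) the whole interval lay within a 2-fold change. For reference, the dys-1 mutant against the same wild type arrays gave 2976 genes at an unadjusted p under 0.05 (14.9%) and a lowest adjusted p of 0.0826, with 0 genes passing. The ced-1 mutant against the dys-1 mutant gave 3741 such genes (18.7%), a lowest adjusted p of 0.0726 and 0 genes passing. These comparisons share arrays with each other, and their counts were not tested against one another.

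The mutated gene itself was measured first. The ced-1 level in the wild type was 9.89 in static flight, 9.89 in centrifuge flight, 10.13 in the ground control and 10.45 in the untransported control. In the mutant it was 9.84, 9.96, 9.55 and 10.28 in the same order. The strains overlapped, and the mutant lay furthest below its wild type partner in the ground control. The mean difference was -0.18 with a 95% interval from -0.58 to 0.23 (n = 4 pairs, adjusted p = 0.94). Without the ground control array of the mutant, the fitted difference of ced-1 was -0.03, a value that the dys-1 arrays also enter. The exact two-sided permutation test of 4 against 4 arrays gave p = 0.4286, where 0.02857 is the smallest value it can give. Turning the sign of each within-exposure difference gave an exact p of 0.375, where the smallest possible is 0.125. The 3 array features of ced-1 differed by -0.29, -0.04 and -0.20. The labels do not say how the allele changes the transcript, so the level of the transcript does not check the genotype.

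No difference was resolved for the genes that act with ced-1 either. None of the 7 genes of the CED-1 branch had the same sign of difference in all 4 exposures, against 6.06% of all genes that were higher in all 4 and 5.91% that were lower. With only 7 genes, this count cannot tell the branch from all genes. The median difference over the 7 genes was -0.07, against 0.00 over all genes. The adaptor gene ced-6 differed by 0.18, -0.22, 0.43 and -0.27 in the order used for ced-1. Its mean difference was 0.03, with an interval from -0.39 to 0.45. The transporter gene ced-7 had levels of 8.27, 8.73, 8.92 and 8.65 in the wild type and 7.85, 8.72, 8.47 and 8.88 in the mutant, a mean difference of -0.16. The groups overlapped for both genes. In the dys-1 mutant ced-7 was 0.86 above the wild type on average (adjusted p = 0.177). The secreted bridging protein gene ttr-52 differed by -0.02, the lipid-binding protein gene nrf-5 by -0.08, the dynamin gene dyn-1 by -0.07 and the fusogen gene eff-1 by -0.01.

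**Figure D1:**
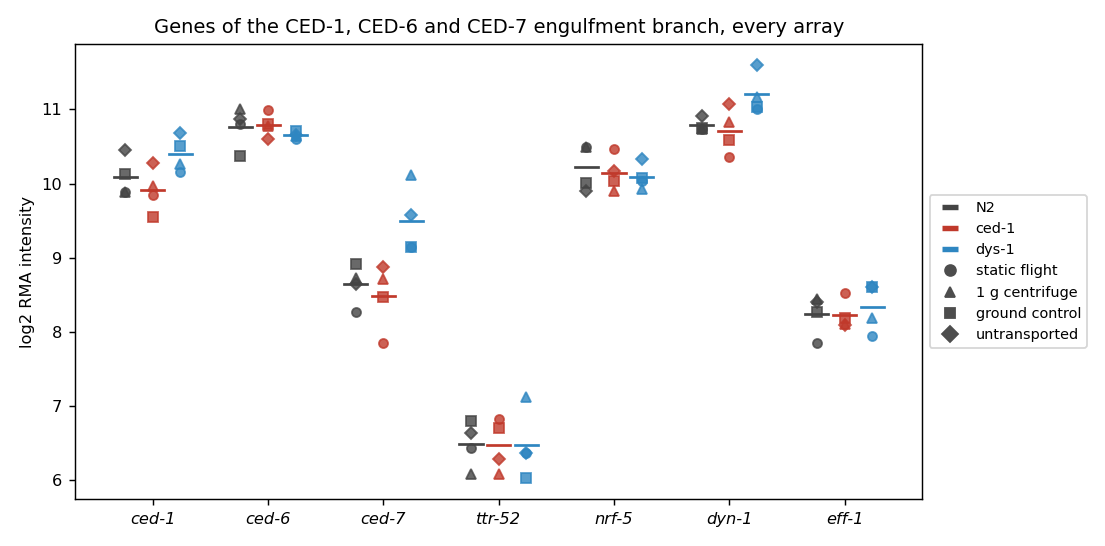
Levels (log2 RMA intensity, vertical axis) of the 7 genes of the CED-1 branch in every array, with symbols for the 4 exposures, colours for the 3 strains and a short bar for each strain's mean. The strain means of ced-1 mutant and wild type lie within 0.18 of each other for all 7 genes, while the dys-1 mean for ced-7 lies 0.86 above the wild type.

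In the parallel branch, the 15 genes had a median difference of -0.08. By exposure, in the order used for ced-1, the medians were -0.03, -0.08, -0.13 and -0.40. Leaving out 1 exposure, the median ran from -0.18 without static flight to -0.09 without the untransported control. Of the 15 genes, 5 were lower in all 4 exposures (33.3%, against 5.91% of all genes). These were ced-2, ced-10, ina-1, mig-2 and mom-5, and none passed after adjustment. The Rac GTPase gene ced-10 had levels of 7.91, 7.78, 8.28 and 8.40 in the wild type and 7.35, 7.41, 7.37 and 8.0 in the mutant. The mutant was below its partner in each exposure, although its untransported array exceeded 2 of the wild type arrays. The mean difference was -0.56 with an interval from -1.0 to -0.11 and an adjusted p of 0.908, and with only the brighter of its 2 features it was -0.29. The adaptor gene ced-2 differed by -0.41, the integrin gene ina-1 by -0.32, the Frizzled receptor gene mom-5 by -0.46 and the Rac gene mig-2 by -0.15. The scaffold genes ced-5 and ced-12 differed by -0.05 and 0.10. For mom-5 the size rested on 1 wild type array, the untransported control at 7.83, while the others lay between 6.73 and 6.81.

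Genes of corpse degradation and of cell killing also held none that passed. The 23 measured genes of phagosome maturation, the step that follows engulfment, had medians of -0.06, 0.09, -0.39 and -0.14 in the usual order of exposures. The median over all 4 was -0.14, and without the ground control it was 0.02. Of the 23, 0 were higher and 4 (17.4%) lower in all 4 exposures, against 6.06% and 5.91% of all genes. The mucolipin gene cup-5, needed for lysosome function, differed by 0.42, and ccz-1, which helps to activate RAB-7, by -0.44, both with an adjusted p of 0.908. The 22 genes of core apoptosis, most of which act before engulfment, had a median of -0.13. The caspase gene ced-3 differed by -0.13, its activator gene ced-4 by 0.17, the BCL-2 homologue gene ced-9 by -0.26 and the BH3-only gene egl-1 by -0.28. Their intervals all included 0. The nuclease gene crn-2 had the lowest mean difference of the list at -0.60. It differed by -2.19 in the ground control, against -0.35, -0.42 and 0.57 in static flight, centrifuge flight and the untransported control.

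The 70 abu- and pqn- genes had a median difference of 0.01. Of these, 3 were higher and 3 lower in all 4 exposures (4.29% each, against 6.06% and 5.91% of all genes). In the ground control 9 of the 70 (12.9%) were more than 2-fold lower, against 5.65% of all genes. In a fit by static slot (static flight and ground control against the other exposures, chosen after the data were seen), 10 of the 70 had an unadjusted p under 0.05, against 8.98% of all genes. The gene abu-4 was at 9.05, 9.49, 9.03 and 8.49 in the wild type and at 10.26, 9.82, 9.70 and 8.57 in the mutant. It was higher in each pair, but the groups overlapped and the mean difference of 0.57 had an adjusted p of 0.908. The gene pqn-59 was at 14.07, 14.47, 14.79 and 14.68 in the wild type and at 12.56, 14.61, 12.67 and 14.49 in the mutant. It was low in the mutant only in static flight and the ground control, where the mutant array lay below every wild type array. The 26 genes of the canonical endoplasmic reticulum stress response had a median of -0.23, with 0 higher and 5 (19.2%) lower in all 4 exposures, against 6.06% and 5.91% of all genes. Among them the kinase gene pek-1 differed by -0.57 and the chaperone gene dnj-7 by -0.60, the latter mostly through static flight with -1.70.

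The next 10 genes were named by the smallest p among those with 1 sign in every exposure, 5 in each direction. The strongest was mltn-3, a gene of the family named after the moulting gene mlt-10. Its level in the wild type was 9.03 in static flight, 9.15 in centrifuge flight, 9.49 in the ground control and 8.74 in the untransported control. The mutant was at 7.94, 8.08, 8.28 and 7.71, so that every mutant array lay below every wild type array. The mean difference was -1.10 with an interval from -1.52 to -0.68 and an adjusted p of 0.739. It was the only gene more than 2-fold apart with the same sign in all 4 exposures. The dys-1 mutant was at 7.89, 7.49, 8.40 and 7.96 and differed from the same wild type arrays by -1.17 (adjusted p = 0.0826), so every array of either mutant strain lay below every wild type array.

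The chemoreceptor gene srx-93 lay on the other side. Its wild type levels were 6.05, 6.01, 6.66 and 6.46, and its mutant levels 7.02, 7.25, 8.54 and 7.35. The groups did not overlap, the mean difference was 1.25 with an interval from 0.77 to 1.73, and the adjusted p was 0.739. The dys-1 mutant differed from the wild type by 0.12 here. With an offset of 50 added to the intensities, the srx-93 difference between ced-1 mutant and wild type was 0.89. The uncharacterised gene F22D3.5 was at 7.76, 7.71, 7.71 and 7.68 in the wild type and at 7.09, 6.32, 6.34 and 6.42 in the mutant. The wild type varied little, every mutant array lay below it, and the mean difference was -1.17 (adjusted p = 0.908). The Skp1-related ubiquitin ligase gene skr-21 differed by -1.11, Y56A3A.9 by -1.37 and F22E5.20 by -1.05, each with an adjusted p of 0.89. On the higher side, the peroxidase gene hpx-2 differed by 0.87, the cuticle collagen gene col-105 by 0.94, Y105C5B.5 by 0.98 and E03H12.7 by 0.84, each with an adjusted p of 0.908. Groups that did not overlap were found for 182 genes at a higher level in the mutant (0.909%) and for 178 at a lower level (0.889%).

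**Figure D2:**
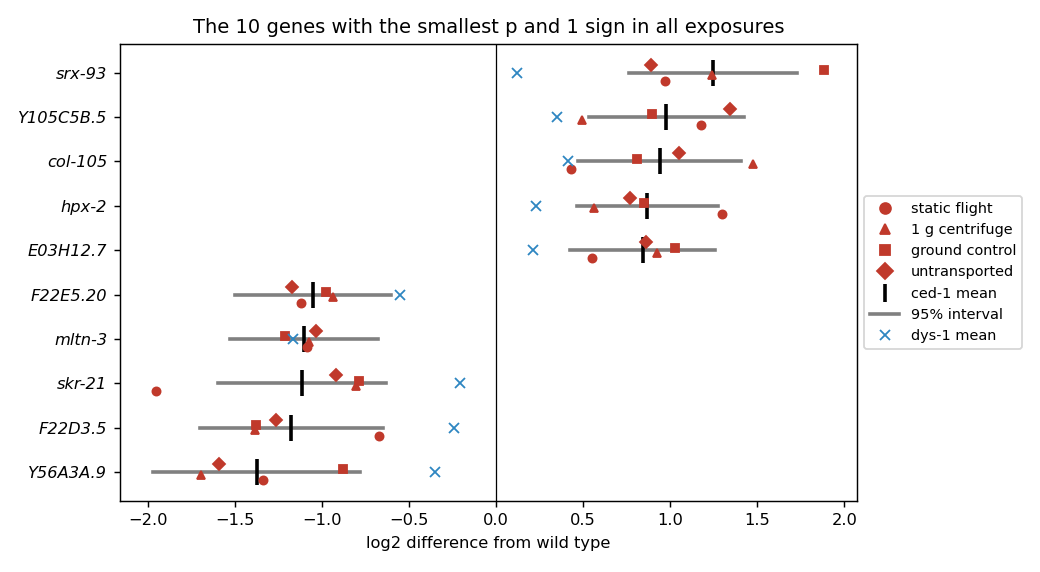
Difference from wild type (log2, horizontal axis) of the 10 genes with the smallest p and 1 sign in all exposures: red symbols are the 4 within-exposure differences of the ced-1 mutant, black ticks their mean, grey bars its 95% interval and blue crosses the mean of the dys-1 mutant. The dys-1 cross lies next to the ced-1 mean only for mltn-3 (-1.17 and -1.10), and none of the 10 genes passed adjustment over all genes.

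Single exposures held many large differences, but they fell on different genes. In static flight 450 genes (2.25%) were more than 2-fold higher in the mutant and 442 (2.21%) lower. In centrifuge flight the numbers were 468 (2.34%) and 413 (2.06%). In the ground control they were 891 (4.45%) and 1132 (5.65%), and in the untransported control 686 (3.43%) and 872 (4.36%). These counts come from 1 array against 1 array and have no test. Across genes, the differences of any pair of exposures correlated with Pearson coefficients between -0.12 and 0.17, a description over 20018 genes that are not independent. A total of 4647 genes passed 2-fold in 1 or more exposures, 30 did so in the mean over all 4, and 8 did so in every exposure. The ground control array of the mutant had a mean intensity over genes of 819, against 916 to 971 for the other mutant arrays and 947 to 961 for the wild type. The part of this array in the larger ground control counts was not tested.

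**Figure D3:**
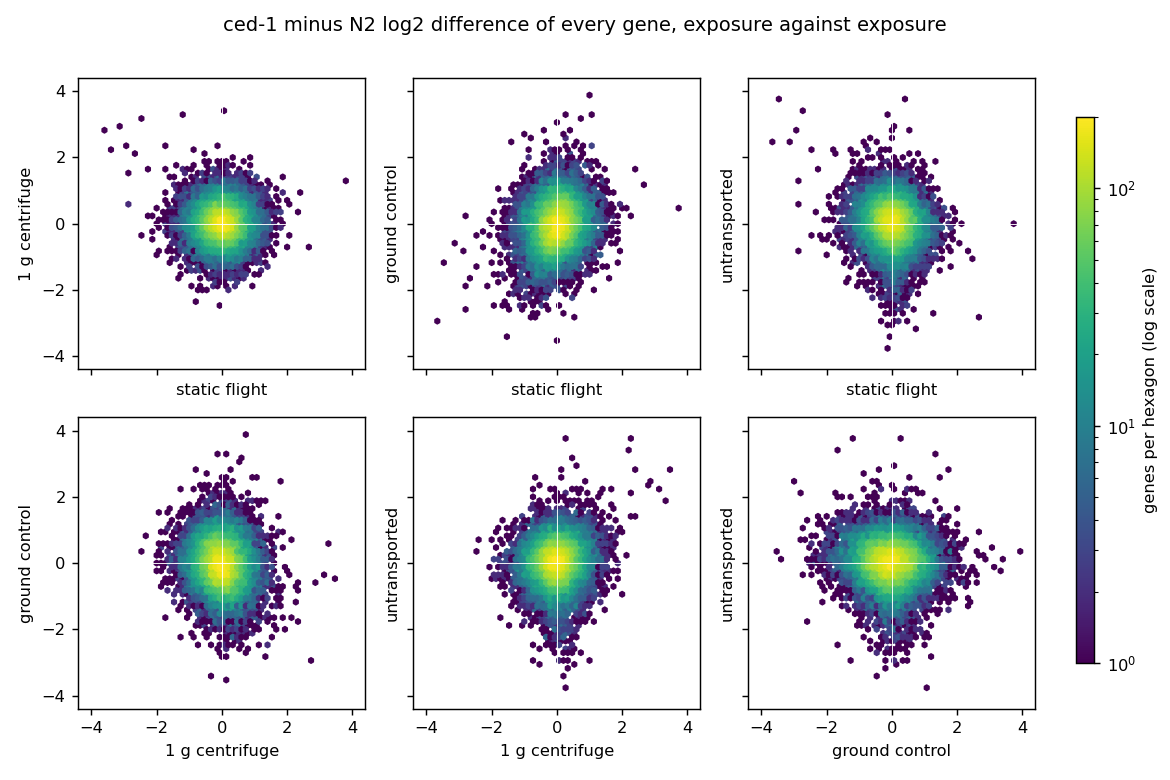
Difference between ced-1 mutant and wild type (log2) of every gene in 1 exposure against the difference in another, 1 panel for each of the 6 pairs of exposures, with colour for the number of genes per hexagon on a log scale. The clouds are round or lie along an axis, with correlations from -0.12 to 0.17. In the panels of static flight against centrifuge flight or the untransported control, the outer points fall toward the upper left. There a gene is low in static flight and high in the other exposure.

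Of the 8 genes past 2-fold in every exposure, 6 lay on alternating sides of the wild type in the same order. They were lower in the mutant in static flight and the ground control, and higher in centrifuge flight and the untransported control. The gene oac-39, of an acyltransferase family, was at 10.13, 9.29, 11.17 and 8.23 in the wild type in the usual order. In the mutant it was at 6.48, 12.09, 8.21 and 10.65. The mutant arrays enclosed the wild type range, and the differences were -3.65, 2.79, -2.96 and 2.41, with a mean of -0.35. The saposin-like gene spp-11, of a family of antimicrobial proteins, was at 8.97, 7.55, 9.27 and 6.38 in the wild type and at 6.30, 9.68, 7.64 and 9.78 in the mutant. The mutant was again low where the wild type was high. The neuropeptide gene flp-19 was at 8.80, 8.17, 10.15 and 9.62 in the wild type and at 7.67, 9.76, 7.87 and 10.99 in the mutant. The other 3 with this order were sel-7, F57F4.2 and T26C12.2. The gene F13A2.4 was higher in the mutant in both flight exposures, by 1.04 and 1.05, and differed by -1.44 and -1.01 in the ground control and the untransported control. These genes were chosen after their values were seen.

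Static slots held the containers of static flight and the ground control. A fit in which the strain difference could depend on the static slot, chosen after this order was seen, gave 0 genes passing, a lowest adjusted p of 0.367 and 1797 genes at an unadjusted p under 0.05 (8.98%). Without the wild type ground control array the last count was 1011, where 1001 would be expected with no difference. For oac-39 the difference of differences was -5.91 (adjusted p = 0.39), and for spp-11 it was -4.92 (adjusted p = 0.39). The dys-1 mutant had the highest level of oac-39 in both flight exposures, at 13.42 and 14.48, and 10.56 and 10.43 in the ground control and the untransported control. The SCP-like extracellular protein genes scl-12 and scl-13 were also among the largest differences of single exposures. They differed by -3.07 and -2.52 in static flight, 2.92 and 3.20 in centrifuge flight, -0.62 and -0.38 in the ground control, and 2.45 and 2.24 in the untransported control.

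**Figure D4:**
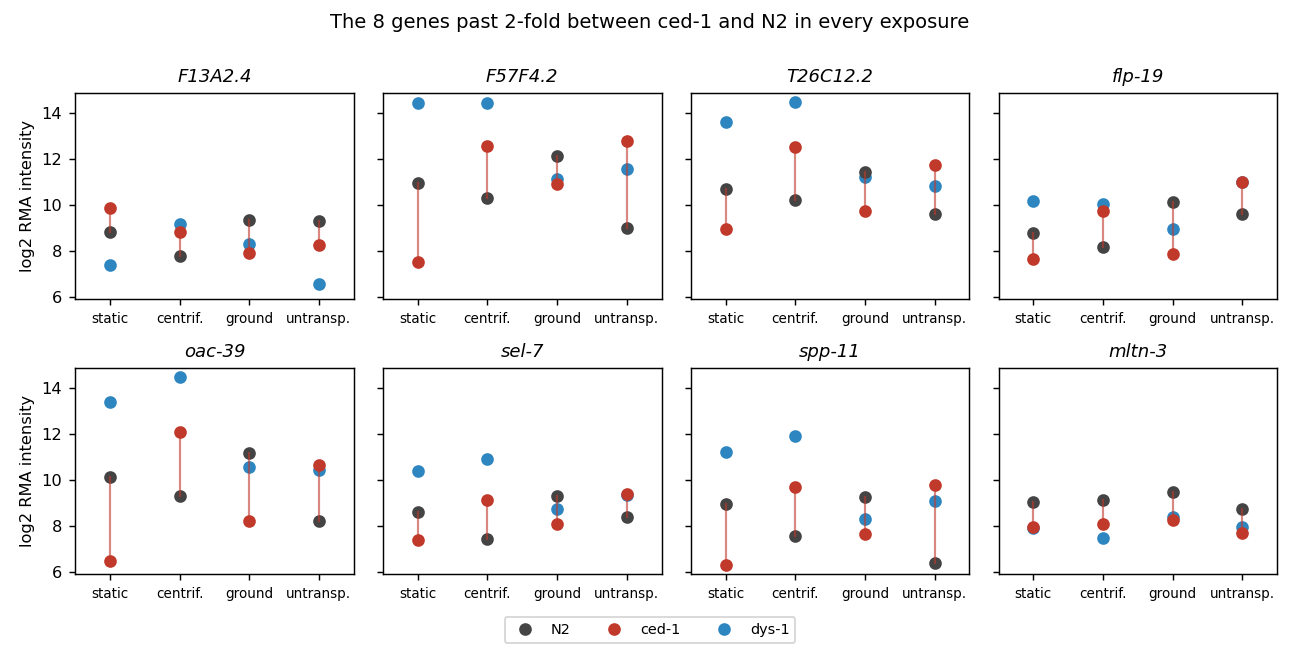
Levels (log2 RMA intensity, vertical axis) of the 8 genes more than 2-fold apart between ced-1 mutant and wild type in every exposure, by exposure along the horizontal axis. A red line joins the mutant to its wild type partner. In 6 panels the mutant lies below the wild type in static flight and the ground control and above it in the other exposures, as for oac-39 with differences of -3.65, 2.79, -2.96 and 2.41, and only mltn-3 keeps 1 direction.

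Neuropeptide genes followed the same order as a group. The median difference over the 107 measured genes was -0.41 in static flight, 0.37 in centrifuge flight, -0.70 in the ground control and 0.75 in the untransported control. In the ground control 38 of them (35.5%) were more than 2-fold lower, against 5.65% of all genes. In the untransported control 28 (26.2%) were more than 2-fold higher, against 3.43% of all genes. Each count rests on a single array of each strain, and the ground control array of the mutant had the lowest mean intensity. In the fit by static slot, 56 of the 107 had an unadjusted p under 0.05, against 8.98% of all genes. That fit was chosen after the order was seen in these data, so the count is no separate support for it. The median over the 4 exposures together was 0.06, since the directions offset each other. Median levels in the usual order were 8.93, 9.10, 9.69 and 9.57 in the wild type. They were 8.44, 9.47, 9.07 and 10.29 in the ced-1 mutant and 9.42, 9.60, 9.26 and 10.28 in the dys-1 mutant. The dys-1 mutant thus lay on the same side of the wild type as the ced-1 mutant except in static flight. The gene flp-32 was higher in all 4 exposures, by 0.24, 1.14, 0.67 and 1.64, with an adjusted p of 0.908. In the dys-1 mutant flp-32 differed from the same wild type arrays by 1.42 on average (adjusted p = 0.196). The 5 general neuronal markers went different ways in the ground control. There egl-3, which encodes a protease that processes neuropeptides, differed by -2.14 and the synaptobrevin gene snb-1 by -1.08, while rab-3, unc-119 and ric-4 differed by 0.07, 0.21 and 0.09. The mean level of the 5 markers was 9.84 in the ground control array of the wild type and 9.27 in that of the mutant. In the usual order, egl-3 differed by -0.99, 0.73, -2.14 and -0.05. Heat shock genes had medians of -0.30, 0.14, -0.28 and 0.35 over 17 genes. The inducible small chaperone gene hsp-16.2 was at 9.64, 10.17, 10.19 and 7.98 in the wild type and 7.36, 10.46, 9.90 and 8.37 in the mutant, and its low level in the static flight array of the mutant gave a difference of -2.28.

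The untransported control held the largest shift of a gene group. Of 91 genes of the oocyte, germline and early embryo, 47 (51.6%) were more than 2-fold lower in the mutant there, against 4.36% of all genes, and the median difference was -1.04. In static flight, centrifuge flight and the ground control the median was 0.11, 0.03 and 0.06. The oocyte yolk receptor gene rme-2 was at 12.47, 11.32, 11.38 and 12.44 in the wild type and at 12.17, 11.85, 11.56 and 9.99 in the mutant. Only the untransported mutant array stood below the others, by a difference of -2.45 from its partner. The eggshell chitin synthase gene chs-1 was at 11.74, 10.91, 10.64 and 11.32 in the wild type and at 12.20, 11.04, 11.08 and 8.42 in the mutant. The oocyte maturation gene oma-1 differed by -2.28, the polarity gene mex-5 by -2.21 and the germline fate gene pie-1 by -1.27 in the untransported control. The dys-1 mutant was also low there, with rme-2 at 10.57, chs-1 at 8.99 and mex-5 at 10.88.

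Germline markers moved with this group. The translational repressor gene gld-1 differed by -2.38 in the untransported control, the Notch receptor gene glp-1 by -1.54, the P granule gene pgl-1 by -1.15 and the helicase gene glh-1 by -0.80. In whole worms fewer cells of a type and less RNA per cell cannot be told apart. The collagen gene col-2 and the cuticle gene cut-1, which mark dauer larvae, had levels of 13.09 and 13.67 in the untransported wild type array and 13.22 and 13.81 in the untransported mutant array. Both genes lay above their levels in the other 3 exposures, which for col-2 ran from 8.55 to 10.35 in the wild type and from 9.30 to 11.79 in the mutant. The dauer list held 3 measured markers. Their mean level in the untransported control was 12.34 in the wild type and 12.30 in the mutant, so the remaining marker was lower in the mutant there. The part of developmental stage in the differences of the untransported control was not tested.

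Cell division genes went with the oocyte genes. The 78 genes of cell cycle and DNA replication had a median of -0.80 in the untransported control, where 27 (34.6%, against 4.36% of all genes) were more than 2-fold lower, and 0.10, -0.08 and -0.12 in static flight, centrifuge flight and the ground control. The replication kinase gene cdc-7 differed by -1.01, -0.85, -0.06 and -1.89, and the kinetochore gene knl-1 by -0.07, -0.98, -1.07 and -1.11. Histone genes had a median of -0.89 in the untransported control, with 19 of 47 (40.4%, against the same 4.36%) more than 2-fold lower. They were the list with the lowest median over the 4 exposures, at -0.31, and 8 of 47 (17.0%) were lower in each exposure, against 5.91% of all genes. Without the untransported control the median was -0.17. Median histone levels in the usual order were 9.66, 9.76, 10.05 and 10.69 in the wild type, highest in the untransported array. In the ced-1 mutant they were 9.23, 9.70, 10.03 and 9.63, so its untransported array lay within the range of its others. The untransported dys-1 array was at 9.44, and the dys-1 mutant had a median of -0.54 against the wild type over the 4 exposures. The histone gene his-4 was at 9.22, 9.41, 9.31 and 9.86 in the wild type and at 8.27, 8.04, 8.88 and 8.98 in the mutant. Its groups did not overlap, and the mean difference of -0.91 had an adjusted p of 0.908. Histone genes are near-identical copies, so their probes may share signal. DNA repair genes had a median of -0.52 in the untransported control, with the polymerase gene polh-1 at a difference of -2.27.

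Vitellogenins, the yolk proteins made in the adult intestine, had medians of 0.11, 0.66, 0.76 and -0.68 over their 6 genes. The gene vit-2 was at 13.87, 13.12, 12.40 and 13.20 in the wild type and at 13.82, 14.17, 13.26 and 12.70 in the mutant. It differed from its partner by 1.06 in centrifuge flight and by -0.50 in the untransported control. Intestinal markers as a whole, elt-2, ges-1, ifb-2, act-5 and vha-6, had medians between -0.24 and 0.08 in the 4 exposures.

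Sperm genes had the largest share on 1 side among the lists of more than 20 genes. Of 91 genes, 23 (25.3%) were higher in the mutant in all 4 exposures, against 6.06% of all genes, and 2 (2.20%) were lower. The median difference was 0.16, and 0.09 without the ground control, and 0 of the 91 passed after adjustment. In the usual order of exposures the medians were 0.14, 0.05, 0.31 and 0.05. The major sperm protein gene msp-3, named after its values were seen, was at 11.39, 10.65, 10.26 and 7.69 in the wild type and at 11.75, 10.64, 11.13 and 8.01 in the mutant. The exposures were much further apart than the strains, with the untransported control lowest in both. The gene msd-2, which encodes a protein with a major sperm protein domain, differed by 0.14, 0.50, 0.91 and 1.00, and the sperm activation gene spe-27 by 1.19, 0.23, 0.91 and 0.27. The major sperm protein genes are near-identical, so the 91 genes are not independent counts. The dys-1 mutant had a median of -0.37 over the same genes against the same wild type arrays.

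Cuticle genes stood out in the ground control. The 176 collagen genes had a median difference of 0.74 there, and 45 of them (25.6%) were more than 2-fold higher in the mutant, against 4.45% of all genes, with 0 lower. In static flight, centrifuge flight and the untransported control the medians were 0.16, -0.20 and 0.17. Over the 4 exposures the median was 0.22, and without the ground control it was 0.06. The collagen gene col-158 was at 6.58, 7.46, 8.0 and 11.54 in the wild type and at 7.62, 8.85, 9.87 and 11.49 in the mutant. It was above its partner in the 3 boxed exposures and level with it in the untransported control, with a mean difference of 1.06 (adjusted p = 0.908). The adult collagen gene col-19 was at 13.57, 12.85, 10.48 and 7.83 in the wild type and at 13.78, 12.28, 11.26 and 9.13 in the mutant. The hypodermal collagen gene dpy-7 differed by 1.41 in the ground control. The 4 hypodermis markers dpy-7, rol-6, col-19 and elt-3 had a median difference of 0.79 there but did not all go the same way. Their mean level was 10.55 in the ground control array of the wild type and 11.02 in that of the mutant. This mutant array was the one with the lowest mean intensity.

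Ribosomal protein genes were lower in all 4 exposures for 13 of 75 (17.3%, against 5.91% of all genes), with a median of -0.13, and -0.07 without static flight. The medians were -0.31 in static flight, -0.09 in centrifuge flight, -0.19 in the ground control and 0.05 in the untransported control. Their median level in static flight was 14.87 in the wild type array and 14.52 in the mutant array. The gene rpl-11.1 differed by -0.35, -0.32, -0.33 and -0.68 (adjusted p = 0.908). Respiratory chain genes had a median of -0.06, and 3 of 41 (7.32%) were lower in all 4 exposures.

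No gene of stress response or detoxification passed. Of 44 glutathione S-transferase genes, 7 had an unadjusted p under 0.05 with a higher level in the mutant and 1 with a lower level (2.78% and 2.51% of all genes). The oxidative stress reporter gene gst-4 was at 6.48, 6.19, 5.93 and 6.59 in the wild type and at 7.72, 6.62, 7.11 and 7.12 in the mutant. Every mutant array lay above every wild type array, and the mean difference of 0.84 had an adjusted p of 0.908. The wild type levels of gst-4 were low, where the median over all genes was 7.68 to 7.71 in the wild type arrays. The gene gst-11 differed in the other direction, by -1.29, -0.44, -1.77 and -0.01. The cytochrome P450 genes had a median of 0.08, with 10 of 75 (13.3%) higher and 2 (2.67%) lower in all 4 exposures, against 6.06% and 5.91% of all genes. The metallothionein gene mtl-1 was at 13.41, 13.91, 12.80 and 12.82 in the wild type and at 12.86, 13.53, 11.66 and 12.58 in the mutant, lower in each pair with a mean difference of -0.58 (adjusted p = 0.908). In the dys-1 mutant mtl-1 differed from the same wild type arrays by -0.73 (adjusted p = 0.197). The lysosomal protease gene cpr-2 differed by -1.61, -0.32, -1.48 and -0.64.

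Large immune, sensory and regulatory families had medians near 0, and no member passed. Some of them were at low levels, which limits what a median near 0 can show. In the wild type arrays the median level was 6.35 to 6.40 for chemoreceptor genes and 6.55 to 6.60 for F-box genes. For all genes it was 7.68 to 7.71. The shares of all genes on 1 side in every exposure were 6.06% higher and 5.91% lower. The 258 C-type lectin genes had a median difference of 0.03, with 14 (5.43%) higher and 22 (8.53%) lower in all 4 exposures. The 357 F-box genes had a median of 0.01, with 23 (6.44%) higher and 37 (10.4%) lower. Among the F-box genes the strains did not overlap for 10 at a higher and 2 at a lower level, against 0.909% and 0.889% of all genes. The 1311 chemoreceptor genes had a median of 0.04, with 105 (8.01%) higher and 56 (4.27%) lower in all 4 exposures, and the 279 nuclear hormone receptor genes one of 0.03, with 15 (5.38%) higher and 7 (2.51%) lower. The 120 antimicrobial and infection response genes had a median of 0.06 over the exposures and 0.28 in the ground control, where 10 (8.33%) were more than 2-fold higher, against 4.45% of all genes. The gene fipr-16, of the fungus-induced peptide family, was at 7.67, 7.03, 6.70 and 6.62 in the wild type and at 8.23, 7.64, 8.13 and 7.65 in the mutant, a mean difference of 0.91 (adjusted p = 0.908). It was higher in each pair, and the groups overlapped by the static flight array of the wild type. The insulin-like gene ins-5 differed by 0.91, 0.40, 0.66 and 0.44. Muscle genes had a median of 0.11 over 56 genes, with the troponin gene tni-3 at 0.42. The remaining lists had medians of 0.06 for moulting, 0.00 for insulin and dauer signalling, 0.16 for dauer and fasting markers, 0.07 for UDP-glucuronosyltransferases, -0.04 for MATH and BATH domain genes, 0.05 for transthyretin-like genes and -0.04 for lipases and lysosomal proteases.

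**Figure D5:**
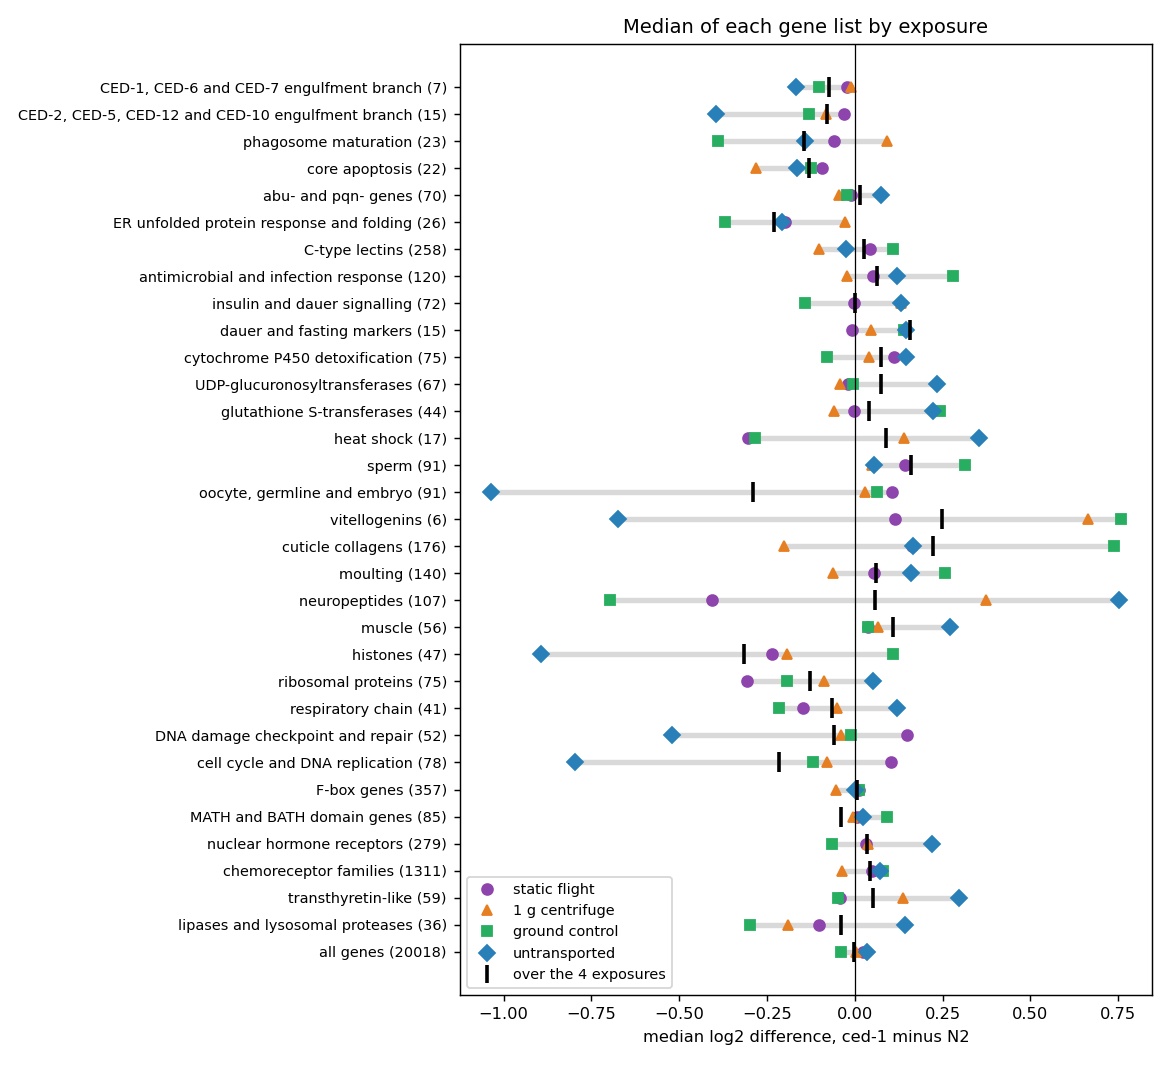
Median difference between ced-1 mutant and wild type (log2, horizontal axis) of each gene list, with the number of genes in brackets, coloured symbols for the 4 exposures and a black tick for the median of the mean differences. All genes lie near 0 in each exposure and the CED-1 branch between -0.17 and -0.01, while oocyte, histone and cell cycle genes reach -1.04, -0.89 and -0.80 in the untransported control, collagens 0.74 in the ground control, and neuropeptides spread from -0.70 to 0.75.

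The strain difference was also set against flight. A fit in which the difference could depend on whether the worms flew gave 0 genes passing, a lowest adjusted p of 0.92 and 972 genes at an unadjusted p under 0.05 (4.86%). The last count was 1558 without the wild type ground control array and 1476 without the untransported array of the mutant. The gene with the smallest p was cdd-2, a cytidine deaminase gene, at 8.31, 7.40, 8.77 and 9.74 in the wild type and 8.97, 8.83, 7.76 and 8.81 in the mutant. The mutant was above its partner in both flight exposures and below it in both ground exposures, a difference of differences of 2.02 (adjusted p = 0.92). The amino acid transporter gene aat-4 had the opposite order, with differences of -0.80, -2.40, 0.83 and 0.67. The other 3 named by this rule were F21H12.2, W03F11.5 and C33G8.2.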

How the data were processed

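Whole worms of 3 strains under 4 exposures were profiled on 12 single-colour arrays. The deposited values are linear intensities that the authors made with RMA, per the submitters' processing notes; its version and the genome build are not given in the sources used here. Each array file holds 23187 features, nearly all of 5 or 6 probes. Here the log2 values of features with the same gene identifier were averaged, which left 20018 genes, 19428 of them named through the RefSeq gene table and 590 by the array file. No per-sample column was left unused (0). limma 3.58.1 in R 4.3.3 fitted exposure and strain over all 12 arrays (6 residual degrees of freedom), and p-values were adjusted by Benjamini-Hochberg with a threshold of 0.05. All adjusted p-values are from this limma fit. Pairs rest on the exposures in the labels. Permutation tests used SciPy 1.17.1. Scripts were tested on simulated data.

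With no gene passing, the naming rule took 5 genes per direction by p among those of 1 sign in all exposures, with the extreme members of each of the 32 gene lists, the engulfment and apoptosis genes, the tissue markers and 5 genes for the test against flight. Largest differences of single exposures were named after their values were seen. The members, lists and naming rule were chosen with earlier results of these data known. Alternatives covered normalization between arrays, an offset of 50, a mean log2 filter of 8, the choice of features, the variance model, and leaving out arrays or exposures. The number of arrays limits the precision.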

Additional observations from a re-analysis of the deposited data

Results flagged for a closer look

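Among 116 named genes, 11 arrays in 232 groups of 4 stood far from the other 3 of their strain (4.7%). The chance rate of about 1 in 20 holds for unselected genes. Some of these genes were named for a large difference in a single exposure, so the share cannot be compared with that rate. In the mutant, the static flight array was high for F22D3.5 at 7.09 and knl-1 at 9.58 and low for scl-13 at 6.33. The ground control array of the mutant was low for cdd-2 at 7.76 and high for T24A6.2 at 10.17, where the other mutant arrays lay between 6.70 and 7.03. The untransported mutant array was high for ced-10 at 8.0. In the wild type, the untransported array was high for dyn-1 at 10.91, mom-5 at 7.83 and ucr-2.3 at 12.02, the ground control array for ugt-27 at 6.88 and the centrifuge flight array for dsh-2 at 9.13.

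For 10 of the 116 named genes the mutant lay on 1 side of the wild type in both flight exposures and on the other side in both ground exposures. Of these, cdd-2, F21H12.2, W03F11.5, aat-4 and C33G8.2 were named for the smallest p in the fit by flight, which favours this order. R04D3.3, F13A2.4 and Y57A10A.22 were named after their values were seen. The share over all genes was not counted, so the number is a description only. The difference of differences, flown minus not flown, was 2.02 for cdd-2, 2.69 for F21H12.2, 1.71 for C33G8.2, 2.18 for R04D3.3, 2.27 for F13A2.4 and 0.42 for ttr-52. It was -2.42 for W03F11.5, -2.35 for aat-4, -1.62 for Y57A10A.22 and -0.46 for nrf-5. None passed in the limma fit by flight, where the lowest adjusted p was 0.92.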

How the results depend on the processing

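The count of 0 genes passing between ced-1 mutant and wild type held under all 27 alternatives, and the lowest adjusted p of any gene in any of them was 0.136. Counts at an unadjusted p under 0.05 ran from 643 to 1296 on all genes and were 396 of 8959 genes with a mean log2 of at least 8. Without the exposure as a block, 0 genes passed and 643 had an unadjusted p under 0.05; the pairing by exposure changed no call. The fits by flight and by static slot passed 0 genes under each alternative run, while their counts at an unadjusted p under 0.05 ran from 683 to 1558 and from 1011 to 2313. The ced-1 against dys-1 count was 0, and 268 with a trended and robust prior variance. Leaving out single arrays it ran from 0 to 335, with 335 without the wild type ground control, 219 without the ced-1 centrifuge flight array, 3 without the untransported ced-1 array and 2 without the dys-1 ground control; the cause was not tested. Of 3057 pairs of a named gene and an alternative, 5 moved by more than 1 SD of the 4 differences. The gene mltn-3 moved to -0.97 with the offset and to -1.19 without the ced-1 centrifuge array. F22E5.20 moved to -0.77 with the offset and to -1.17 without the wild type centrifuge array, and ced-10 to -0.29 with its brighter feature. Where a single array is left out, the dys-1 arrays also enter the fitted difference. Of 115 named genes, 31 changed sign in 1 or more alternatives, and of the 10 with the smallest p, 0 did.

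With quantile normalization the ground control counts past 2-fold were 1090 higher and 1061 lower. Collagens without the ground control had a median of 0.06, and oocyte genes without the untransported control 0.07, against -0.29 over all 4 exposures. With 1 array for each strain and exposure, a difference within an exposure has no replicate check.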

Other observations

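Several of the largest differences of single exposures fell on genes outside the lists, and these genes were chosen after their values were seen. In the ground control T24A6.2 was 3.93 above the wild type, Y62H9A.1 3.35 and D1007.15 3.30, while R06C1.6 differed by -3.51 and F58D5.5 by -3.41. In the other exposures the differences of R06C1.6 lay at 0.01, 0.11 and 0.36. In the untransported control the peroxidase gene skpo-1 differed by -3.76, C01G6.3 by -3.43 and R04D3.3 by -3.16, and C01B4.7 by 3.74. The wild type untransported array was the highest of its strain for the first 3 of these, with skpo-1 at 10.41 against 7.80 to 9.19 in the other wild type arrays. In static flight F38E1.11 was 3.76 above the wild type and B0302.4 2.63, and in centrifuge flight T05B4.12 was 3.46 and scl-11 3.28 above it.

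By whole-array correlation over genes, the mutant arrays of static flight and centrifuge flight correlated with their wild type partners at 0.967 each, those of the ground control at 0.942 and those of the untransported control at 0.953. The static flight array of the mutant was most like the wild type array of its own exposure (0.967). The centrifuge flight array of the mutant was most like the dys-1 ground control (0.972), the ground control array of the mutant most like the wild type in static flight (0.948), and the untransported array of the mutant most like the untransported dys-1 array (0.961).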
